A study of Mus musculus with 1 sample.

Results

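The genes described here encode the secreted and membrane-bound metalloproteinases of the matrix metalloproteinase (MMP), ADAM and ADAMTS families, the ADAMTS-like proteins, and the inhibitors Timp1 to Timp4 and Reck. They were chosen by gene symbol alone and comprised 71 genes with 125 probe sets among the 18193 named genes of the array. The sample was total RNA of ovarian surface epithelia cells, taken from mice of wild type genotype at 3 months of age and hybridised to a single Affymetrix array. The series compared 3 genotypes, of which this wild-type sample was analysed here. The sources used here do not give the strain, the number of mice pooled or the way the cells were taken. There is therefore no comparison between groups, no replicate and no replicate error for any value. If the preparation was mixed, fewer cells of a type and less RNA per cell cannot be told apart in its RNA.

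MMPs are zinc-dependent enzymes that cut collagens and other matrix proteins and are made as inactive precursors. ADAMs are membrane proteins with a disintegrin domain, many of which release the outer parts of growth factors and receptors from the cell surface, a process called shedding. ADAMTS enzymes are secreted, carry thrombospondin repeats and cut matrix proteoglycans and procollagens, while the ADAMTS-like proteins share the repeats but have no protease domain. TIMPs inhibit these enzymes by binding the active site. The ovarian surface epithelium covers an organ whose wall is opened and repaired at each ovulation, and matrix proteolysis is a known part of that cycle.

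Of the 71 genes, 38 had at least 1 probe set above the background limit, or 53.5%, beside 62.8% of all 18193 named genes. The limit was an intensity of 46.5, the interpolated 95th percentile of 126 background probe sets, of which 7 exceeded it. These belong to keratin-associated proteins and to receptors for odours, pheromones and bitter taste, genes of hair, nose and tongue, and their median was 13. A gene was called above background by its brightest probe set. The median of the brightest probe sets was 5.67 on the log2 scale for the 71 genes and 7.06 for all named genes. The families differed in their counts: 10 of 18 MMPs, 9 of 28 ADAMs, 11 of 15 ADAMTS genes, 4 of 5 ADAMTS-like genes and 4 of the 5 inhibitors were above the limit. Genes with a single probe set have fewer chances to pass, and 39 of the 71 genes had only 1. Of these 13 passed, or 33.3%, beside 47.3% of all genes with 1 probe set. Among genes with 2 probe sets 15 of 18 passed, beside 71.8% of all such genes. Among those with 3 probe sets 5 of 8 passed, beside 82.9%, and among those with 4 or more 5 of 6, beside 90.2%. None of these differences was tested, since genes are not replicates.

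**Figure D1:**
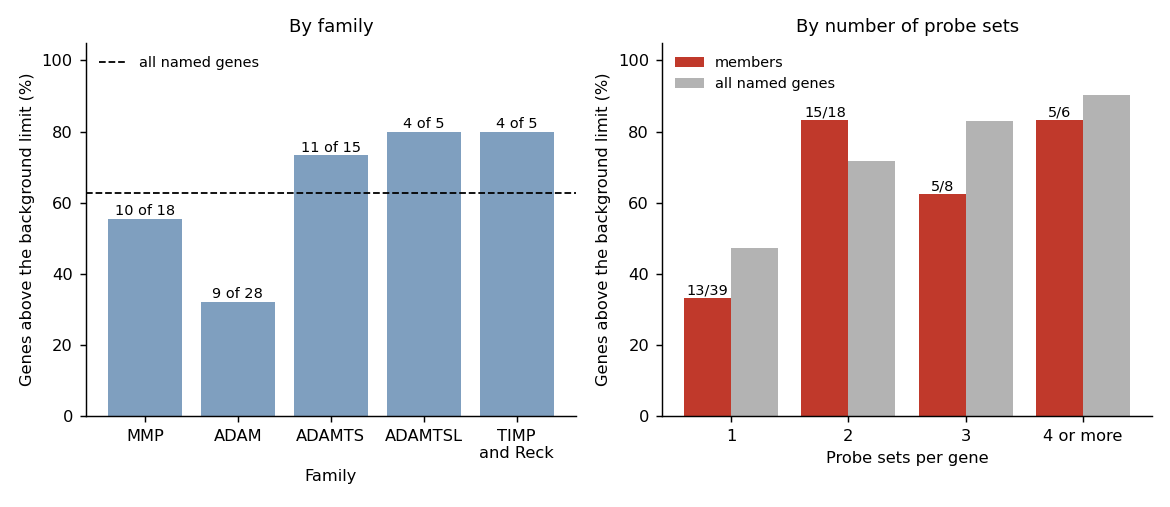
Percentage of genes above the background limit (an intensity of 46.5), by family on the left and by number of probe sets per gene on the right. Numbers above bars are genes above the limit of genes measured, the dashed line and grey bars are all 18193 named genes, and the ADAM bar, at 9 of 28, is the lowest of the 5 families.

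Intensities of different probe sets depend on their sequences, so the level of one gene is not ranked here against that of another. Of the 32 genes with several probe sets, 13 had all of them above the limit, 12 had probe sets on both sides and 7 had none above. Over all 9010 named genes with several probe sets, 32.1% had all above and 46.7% had probe sets on both sides. The median SD between probe sets of 1 gene was 0.96 on the log2 scale for these genes and 1.39 for all genes. This spread is between probe sets on 1 array and is not a replicate error.

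The preparation carried the transcripts its label names. All 10 markers of surface epithelium and mesothelium were above the limit, with brightest intensities of 2047 to 20836. Genes listed as markers of other cell types were also above the limit. All 5 fibroblast markers passed, at 307 to 29972, and all 5 smooth muscle markers, at 764 to 23141. All 5 macrophage markers passed, at 47 to 2142. Of 4 measured granulosa cell markers 3 were above the limit, at 58 to 1438, and Fshr, at 34, was not. Of 5 endothelial markers only Kdr was above it, at 1813, with the others at 11 to 23. None of 3 measured neutrophil markers, at 12 to 17, and none of 5 oocyte markers, at 11 to 42, was above it. All these counts are to be read against the 62.8% of all named genes above the limit. Some markers passed on part of their probe sets: Pdgfra on 1 of 3, Acta2 on 2 of 3, and Myh11, Des and Foxl2 on 1 of 2. Whether the markers listed for other cell types came from such cells or from the surface epithelium itself was not tested. The marker values stand beside every result that follows, and their part in those results was not tested.

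Of the 5 inhibitors 4 were above the limit. Timp1, a secreted inhibitor induced by growth factors in many cells, had an intensity of 10935 on its single probe set. Timp2, which inhibits MMPs and also takes part in the activation of Mmp2 at the cell surface, had 6 probe sets at 16, 307, 1648, 5282, 6904 and 10118. Thus 5 of its 6 probe sets were above the limit, and the remaining 1 was near the background median of 13. Timp3, the inhibitor that binds to the matrix and also blocks ADAM17 and several ADAMTS enzymes, had intensities of 858, 4247, 13284 and 14176. On the log2 scale the brightest probe set of Timp3 lay 8.25 above the limit, that of Timp1 7.88 and that of Timp2 7.77. Reck, a membrane-anchored inhibitor of MMPs, had 275 on 1 probe set. Timp4 was the exception, with 11 and 26, and was not above the limit.

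Of the 4 TIMP genes, 3 lie inside the span of a synapsin gene in the mouse reference annotation, synapsins being vesicle proteins of neurons. Timp1 lies within Syn1, whose single probe set had an intensity of 13. Timp3 lies within Syn3, whose 3 probe sets had 10 to 20. In both places the TIMP was above the limit and its host gene was not. Timp4 lies within Syn2, and there the order was the opposite. Syn2 passed on 2 of its 6 probe sets, with a brightest intensity of 87, and Timp4 passed on neither of its 2. Syn2 thus had more chances to pass, and its 87 was close to a stricter limit of 84.8, the 99th percentile of background.

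Among the MMPs, those above the limit were the gelatinases, 4 of the 5 membrane-bound enzymes measured and a few others, while no collagenase was. These classes had unequal chances to pass. The 4 collagenases had 1 probe set each, and 47.3% of all such genes passed. The 2 gelatinases had 2 each, and 71.8% of such genes passed. Of the gelatinases Mmp9 passed on 1 probe set only, close to the limit. Over all named genes the share was 62.8%. Mmp2, gelatinase A, which cuts type IV collagen of basement membranes, had 9871 and 10810 on its 2 probe sets, an SD of 0.09 on the log2 scale. Mmp14, the membrane-type enzyme that activates the Mmp2 precursor together with Timp2, had 804, 1474 and 6618. All 3 partners of this activation complex were therefore above the limit, by 7.86 on the log2 scale for Mmp2, 7.15 for Mmp14 and 7.77 for Timp2. Mmp23, a membrane-anchored enzyme, had 1568 and 1623. Mmp11, called stromelysin-3, which is activated inside the cell by furin, had 1536. Mmp17, which is held in the membrane by a lipid anchor, had 228.

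Several MMPs were close to the limit. Mmp9, gelatinase B, an enzyme of neutrophils and macrophages, had 60 and 25. Mmp12, the macrophage elastase, had 75. Mmp19 had 68 and 74 on its 2 probe sets, both above the limit. Mmp24, a membrane-type enzyme described mainly in the nervous system, had 17, 37 and 70. Mmp10, stromelysin-2, had 50. All 5 of these genes fell below a limit at the 99th percentile of background, an intensity of 84.8, which left 5 of 18 MMPs above it.

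The remaining 8 MMPs were not above the limit. The collagenases Mmp1a and Mmp1b, which are closely related in sequence, each had 10. Mmp8, the neutrophil collagenase, had 14, and Mmp13, collagenase 3, had 13. Mmp20, an enzyme of tooth enamel, had 13. Mmp7, matrilysin, an enzyme of glandular epithelia, had 29, and Mmp3, stromelysin-1, had 31. Mmp16, a membrane-type enzyme related to Mmp14, had 4 probe sets at 10, 12, 16 and 40.

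**Figure D2:**
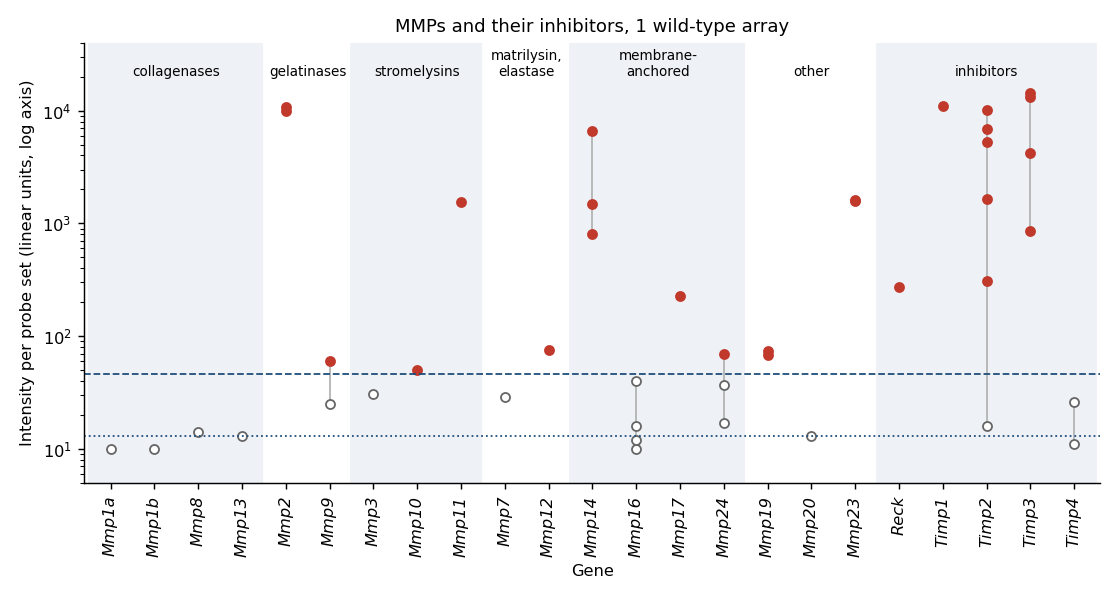
Intensity of every probe set (points, log axis) of 18 MMP genes and 5 inhibitor genes on the wild-type array, grouped by enzyme class, with a grey line joining probe sets of 1 gene. Filled points lie above the background limit of 46.5 (dashed line), the dotted line is the background median of 13, and the 4 collagenases at 10 to 14 lie at that median, while Mmp2 has its probe sets at 9871 and 10810.

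Most MMPs not above the limit lay together in the genome. In the reference annotation, 10 MMP genes lie next to each other with no other protein-coding gene between them, in the order Mmp13, Mmp12, Mmp1b, Mmp3, Mmp1a, Mmp10, Mmp8, Mmp27, Mmp20 and Mmp7. Of the 9 that were measured, 2 were above the limit, Mmp10 at 50 and Mmp12 at 75, both close to it. Of the 9 measured MMPs outside this run, 8 were above the limit, Mmp16 being the exception. The genes of the run had 1 probe set each, and 47.3% of all genes with 1 probe set passed. Of the 9 outside it 7 had several, and of all genes with 2, 3 or more probe sets 71.8% to 90.2% passed, so the count outside the run is near that of genes in general.

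Promoter windows covered 250 bases before to 50 bases after a transcription start, from RefSeq on GRCm38.p6. Windows were at hand for 42 of the 71 genes, including all 9 measured genes of the run and 4 MMPs outside it. These 4 were all above the limit, and Mmp2, Mmp9, Mmp16, Mmp17 and Mmp19 had no window. Whether the motifs have a part in the calls was not tested. A total of 3 motifs were searched on both strands: TGANTCA, the form bound by AP-1, the FOS and JUN dimer; TATAAA, the core of the TATA box; and GGGCGG, the GC box bound by Sp1-type factors. All 9 genes of the run had a TATAAA, 8 of the 9 also had a TGANTCA, the exception being Mmp8, and none had a GGGCGG. All 4 MMPs outside the run with a window, Mmp11, Mmp14, Mmp23 and Mmp24, had a GGGCGG and neither of the other motifs. Over all 27025 genes with a window, 8.97% had a TGANTCA, 15.7% a TATAAA, 2.08% both and 38.2% a GGGCGG. A match is a match of letters and not a measured binding site. The 120 bases before the start are printed 5′ to 3′ on the gene's strand for 4 genes of the run and for 4 genes whose brightest probe set was far above the limit, with matches to the 3 motifs in capitals.
Mmp10, chr9:7502222-7502341, plus strand: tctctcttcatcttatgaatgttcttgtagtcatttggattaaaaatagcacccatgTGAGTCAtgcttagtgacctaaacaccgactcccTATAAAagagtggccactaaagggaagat
Mmp13, chr9:7272394-7272513, plus strand: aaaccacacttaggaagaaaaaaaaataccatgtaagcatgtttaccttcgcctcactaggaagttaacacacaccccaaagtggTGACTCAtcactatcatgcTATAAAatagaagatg
Mmp1a, chr9:7464021-7464140, plus strand: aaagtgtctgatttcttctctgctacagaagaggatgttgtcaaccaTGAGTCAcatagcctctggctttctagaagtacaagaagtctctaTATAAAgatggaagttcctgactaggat
Mmp3, chr9:7445702-7445821, plus strand: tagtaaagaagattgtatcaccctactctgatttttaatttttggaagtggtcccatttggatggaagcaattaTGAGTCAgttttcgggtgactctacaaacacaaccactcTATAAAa
Mmp11, chr10:75932503-75932622, minus strand: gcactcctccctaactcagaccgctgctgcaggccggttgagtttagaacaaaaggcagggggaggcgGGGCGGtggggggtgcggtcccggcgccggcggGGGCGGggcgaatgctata
Mmp14, chr14:54431478-54431597, plus strand: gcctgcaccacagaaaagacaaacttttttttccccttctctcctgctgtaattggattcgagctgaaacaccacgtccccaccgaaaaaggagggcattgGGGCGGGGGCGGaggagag
Timp1, chrX:20870046-20870165, plus strand: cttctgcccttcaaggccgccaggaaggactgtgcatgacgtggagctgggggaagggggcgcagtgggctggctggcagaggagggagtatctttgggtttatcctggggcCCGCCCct
Timp3, chr10:86300292-86300411, plus strand: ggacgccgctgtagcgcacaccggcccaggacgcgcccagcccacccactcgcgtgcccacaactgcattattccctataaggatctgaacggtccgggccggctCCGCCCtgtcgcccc

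In the first 4 sequences the TGANTCA match stands shortly before the TATAAA. In Mmp10 they begin 63 and 29 bases before the start, in Mmp13 35 and 16, in Mmp1a 73 and 28, and in Mmp3 46 and 7. The middle base was G in Mmp10, Mmp1a and Mmp3 and C in Mmp13. The same order was found in Mmp1b, at 93 and 49 bases, in Mmp20, at 95 and 58, and in Mmp7, at 63 and 26, where a further TATAAA begins 123 bases before the start. In Mmp12 the TGANTCA begins 44 bases before the start and the TATAAA at base 5 after it. Of these 8 genes 2 were above the limit, Mmp10 at an intensity of 50 and Mmp12 at 75. In Mmp8, which had no TGANTCA, the TATAAA begins 3 bases before the start. In the last 4 sequences the capitals mark GC boxes, on either strand, within 52 bases of the start.

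Outside the run of MMP genes, 33 genes had a window. GGGCGG was found in 19 of the 21 that were above the limit and in 3 of the 12 that were not. Over all named genes with a window the motif was also more frequent above the limit, in 70.1% of 9267 genes, than below it, in 34.4% of 5185. Over all 42 genes with a window, the number not above the limit that had the motif was 3 of 19, and it was 5 of 23 with the limit at the 99th percentile and 9 of 27 by the lowest probe set. Adamts18, Adamts20 and Adamtsl3 were the 3 with the motif that were not above the limit. Adamts12 and Adam22 were above it with no match in the window. TATAAA was found in 4 of these 33 genes, or 12.1%, near the 15.7% of all genes with a window. Among the 4 were Adamts1, 32 bases before the start, and Adamtsl2, 30 bases before it.

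**Figure D3:**
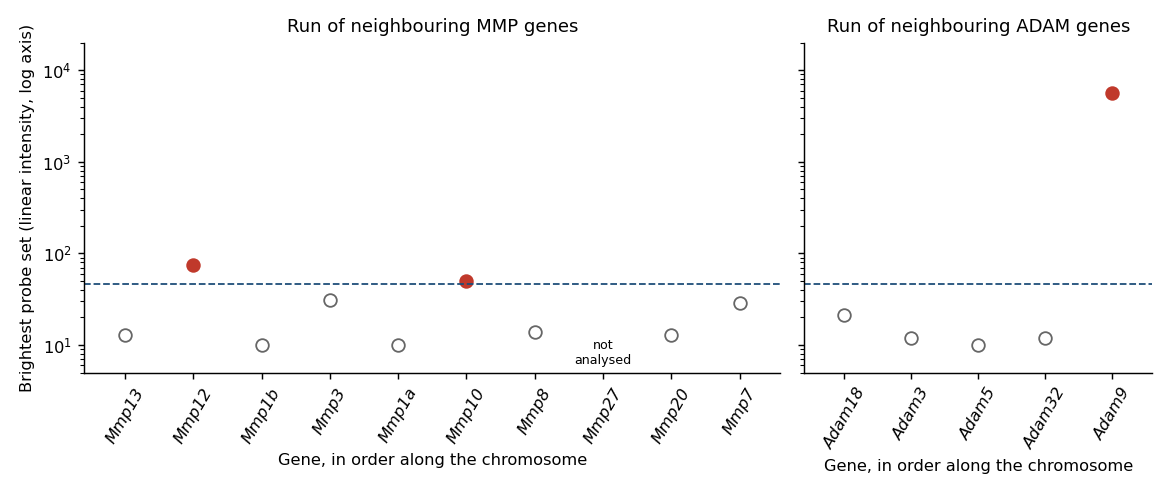
Brightest probe set (linear intensity on a log axis) of genes in their order along the chromosome, for the run of 10 MMP genes on the left and the run of 5 ADAM genes on the right. Filled points lie above the background limit of 46.5 (dashed line). In the run of MMPs only Mmp12 at 75 and Mmp10 at 50 pass, and in the run of ADAMs only Adam9 at 5585.

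Among the ADAMs, most of the somatic proteases were above the limit and no reproductive-tract gene was. Of 9 somatic ADAMs known as active proteases 8 were above it, and of 3 somatic ADAMs without protease activity 1 was. Of the 16 genes known mainly from testis and epididymis none was, and over all named genes the share was 62.8%. The groups also differed in probe sets: 7 of the 9 somatic proteases had several, but only 1 of the 16. Of all genes with 1 probe set 47.3% passed, and of those with 2, 3 or more 71.8% to 90.2%. Only 2 of the 17 ADAMs with a single probe set passed, Adam8 and Adam9. Adam9, a widely expressed sheddase, had 5585 on that probe set. Adam10, the main sheddase of Notch receptors and E-cadherin, had 35, 44, 320 and 2905, with 2 of 4 probe sets above the limit. Adam17, which releases TNF and the EGF receptor ligands, had 49, 316 and 820, all above it. Both of these principal sheddases were therefore detected, Adam10 by 5.97 and Adam17 by 4.14 on the log2 scale at the brightest probe set.

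Adam12, an enzyme of mesenchymal and muscle cells, had 146 and 786. Adam15, an ADAM whose disintegrin domain in human carries an RGD integrin-binding motif, had 36, 67, 129 and 519. Adam19, known from heart development, had 48 and 489. Adam33 had 281 and 288, 2 probe sets that nearly coincided, with an SD of 0.03 on the log2 scale. Adam8, an enzyme of leukocytes and osteoclasts, had 274, beside the 5 of 5 macrophage and 0 of 3 neutrophil markers above the limit. The macrophage marker Adgre1, at 47, was barely above it. Adam28, known from lymphocytes and epididymis, had 15 and 27 and was the somatic protease that did not pass. Of the somatic ADAMs without protease activity, which act as adhesion and synaptic proteins in brain, Adam22 had 22 and 196, Adam11 had 20 and 41, and Adam23 had 15, 17 and 19.

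The 16 reproductive-tract ADAMs had brightest intensities of 8 to 42, all at or below the limit. Adam2 and Adam3, sperm surface proteins needed for fertility, had 13 and 12. Adam1a had 14, and Adam1b had 10, 18 and 27. Adam7, an epididymal member, had 25. Adam4 at 42 was the nearest to the limit, followed by Adam21 at 32. Adam6a and Adam6b, near-copies of each other, had 9 and 10, and a probe set shared by the pair had 14. The others were Adam5, Adam18, Adam24, Adam25, Adam26a, Adam32 and Adam34, at 8 to 21. Of the 5 sperm and testis markers, Prm1 was above the limit on 1 of 3 probe sets, at 57, and the others had at most 10 to 24. At a looser limit, the 90th percentile of background with an intensity of 25.5, Adam1b, Adam4 and Adam21 passed as well.

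Gene order gave a like picture for the ADAMs. Adam9 is the last of 5 neighbouring ADAM genes, after Adam18, Adam3, Adam5 and Adam32, and its intensity was 5585 while those of its neighbours were 21, 12, 10 and 12. Of the 12 measured ADAMs that lie next to another gene of these families in the annotation, Adam9 alone was above the limit, and of the 16 that do not, 8 were. Of those 12 genes 11 had a single probe set, and all but Adam9 belong to the reproductive-tract group, so this count repeats the division already given. The share of all genes with 1 probe set above the limit was 47.3%.

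**Figure D4:**
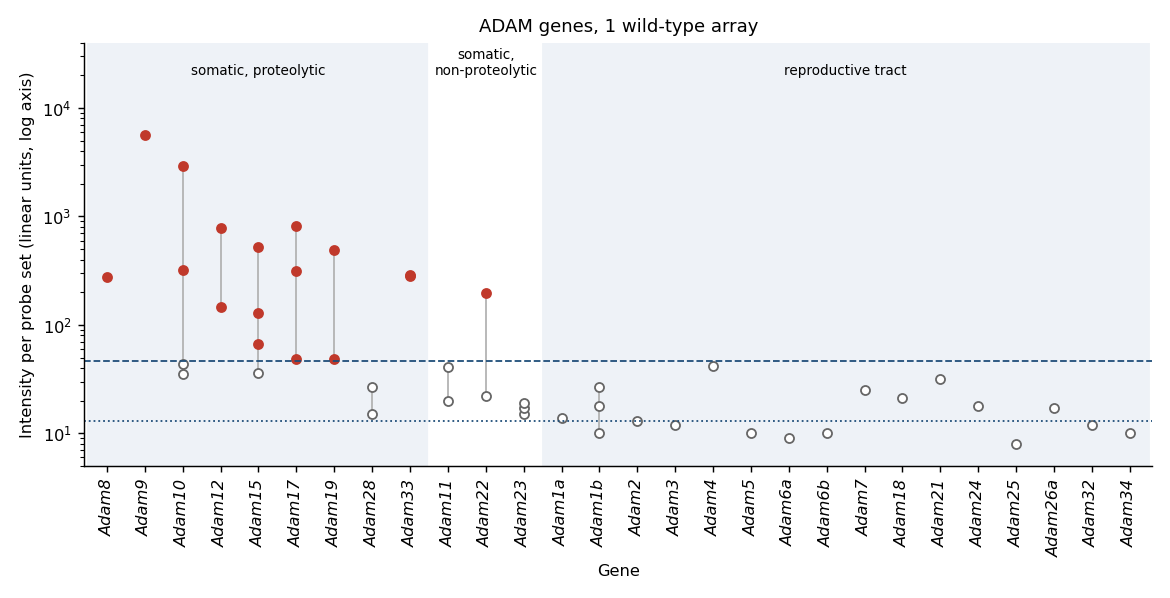
Intensity of every probe set (points, log axis) of 28 ADAM genes on the wild-type array, in 3 groups, with a grey line joining probe sets of 1 gene. Filled points lie above the background limit of 46.5 (dashed line), the dotted line is the background median of 13, and none of the 18 probe sets of the reproductive-tract group passes.

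The ADAMTS genes above the limit included 5 of 7 that cut large proteoglycans, a share near the 62.8% of all named genes, and 3 of 7 by their lowest probe sets. Adamts1, which is induced in the ovary by the ovulatory signal and cuts versican, had 802. Its chromosomal neighbour Adamts5, an aggrecan-cutting enzyme, had 10, 136, 561 and 664. Adamts9, a widely expressed versican-cutting enzyme, had 39, 292 and 932. Adamts4, another aggrecan-cutting enzyme, had 54 and 111. Adamts8 had 51 and lay close to the limit, while its neighbour Adamts15 had 24. Adamts20, known from pigment cell development, had 10.

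Adamts12, which cuts cartilage oligomeric matrix protein, had 3281 on one probe set and 11 on the other, and its SD of 5.81 on the log2 scale was the largest of the 32 genes with several probe sets. Its relative Adamts7 had 366. Adamts3, a procollagen-processing enzyme, had 15 and 176. Adamts10, which binds fibrillin microfibrils, had 52 and 321, and its relative Adamts6 had 16 and 47, the brighter just above the limit. Adamts16 had 65 and 95, both above it, whereas its relative Adamts18 had 8, 9 and 12. Adamts19 had 10.

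Of the ADAMTS-like genes, which encode matrix proteins without a protease domain, Adamtsl4, a fibrillin-binding protein, had 451. Adamtsl2, which binds fibrillin and a TGF-beta binding protein, had 86. Adamtsl5 had 51 and 61, and Adamtsl1 had 21, 47 and 51. Adamtsl3 had 26 and was the only one not above the limit.

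**Figure D5:**
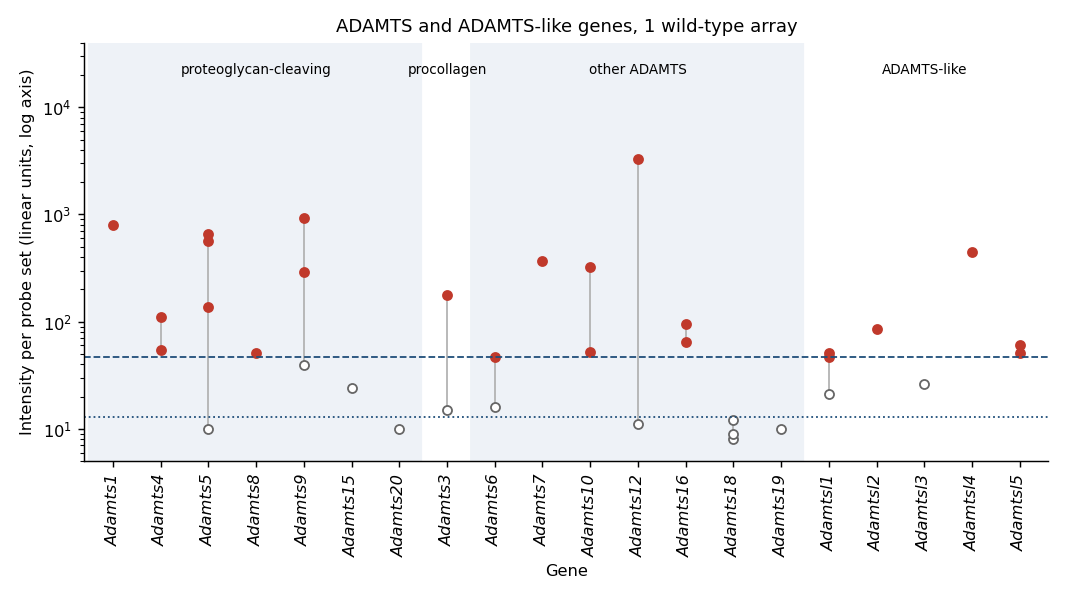
Intensity of every probe set (points, log axis) of 15 ADAMTS and 5 ADAMTS-like genes on the wild-type array, with a grey line joining probe sets of 1 gene. Filled points lie above the background limit of 46.5 (dashed line), the dotted line is the background median of 13, and Adamts12 spans 11 to 3281 over its 2 probe sets.

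Calls near the limit depended on where it was set. Of the 38 genes above it, 29 stayed above it under all 5 other limits tried, among them Mmp2, Mmp11, Mmp14, Mmp17, Mmp23, all 8 somatic ADAM proteases above the limit and the 4 inhibitors above it. The other 9 fell below the limit at the 99th percentile, and these were Adamts6, Adamts8, Adamtsl1, Adamtsl5, Mmp9, Mmp10, Mmp12, Mmp19 and Mmp24. Of the 33 genes not above the limit, 10 passed a limit at the 90th percentile, Timp4, Mmp3, Mmp7 and Mmp16 among them. The genes just inside the limit were Adamts6 at 47 and Mmp10 at 50, and those just outside it were Adam4 at 42 and Adam11 at 41.

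Genes that activate or assist these enzymes were also measured, and their counts are to be read against the 62.8% of all named genes above the limit. Of 7 measured proprotein convertases 6 were above it, Pcsk4, at 54, being close to it. Some of these convertases, though not all, cut the inhibitory pro-domain from MMPs with a basic site, ADAMs and ADAMTS enzymes. Furin had 456, Pcsk5 had 328 on the brightest of 5 probe sets with 2 above the limit, Pcsk6 had 655 and Pcsk7 had 275. Of 9 partners of Adam17 and Adam10, 8 were above the limit. The iRhom proteins, which carry Adam17 to the cell surface, were represented by Rhbdf1 at 1007 and Rhbdf2 at 270. Frmd8, which stabilises the complex of iRhom and Adam17, had 763, and Tspan5, a tetraspanin that binds Adam10, had 91 and 857.

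Of 13 measured substrates of shedding 11 were above the limit, again beside 62.8% of all named genes. Nrg1, at 43, and Tnf, at 28, were not. Most of the 13 had several probe sets, and of all genes with 2, 3 or more 71.8% to 90.2% passed. Hbegf, a ligand of the EGF receptor, had 558 and 830. Tgfa, Ereg and Btc, ligands of the same family, had 73, 78 and 65 on their brightest probe sets. They and L1cam, at 55, lay below the limit at the 99th percentile, 84.8, which 55.3% of all named genes passed. Of 9 genes for clearance and surface binding of these proteins 6 were above the limit, a share near that of all named genes. Lrp1, the receptor that takes up MMPs and TIMPs from the cell surface, had 42 and 2800. Bsg, a surface protein that induces MMPs in neighbouring cells, had 11032, and A2m, a broad protease inhibitor, had 213, while its relative Pzp had 9.

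A list of 10 genes held some substrates of ADAMTS enzymes and some hyaluronan genes. Of these 10 genes 1 was above the limit, beside 62.8% of all named genes. The list was not complete: it held no procollagen gene, while Col1a1 and Col1a2 had brightest intensities of 8290 and 29972. Vcan, which encodes versican, passed on 2 of its 8 probe sets, with a brightest intensity of 84. Acan, Bcan and Ncan, related proteoglycans of cartilage and brain, had at most 24, 25 and 27. The hyaluronan synthases Has1, Has2 and Has3 had at most 46, 40 and 28, of which Has1 was just below the limit.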

How the data were processed

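From 1 wild-type sample, 5 ug of column-purified total RNA was turned into labelled cRNA, per the labels' protocols. The deposited values are whole-number intensities on a linear scale, 6 to 32341 over 45101 probe sets. They were made with affy and RMA, per the submitters' processing notes, and the sources used here give neither versions nor the arrays normalized together. Differences between low intensities are compressed by RMA, and rounding can shift an intensity at the limit by 0.02 (log2). Probe sets were named through the platform's annotation: 34945 had 1 symbol, 932 several and 9160 none, and 64 controls were left out. All 125 probe sets of the 71 genes matched GRCm38.p6 gene numbers. Genes were called above the 95th percentile of background by their brightest probe set. The groups, companion lists and motifs were chosen with earlier results of these data known. Every member is named, and the first 4 measured genes of each companion list, with others added after their values were seen. The counting code was checked on simulated data, with planted genes set above the limit and the other genes of these families at or below it. That checks the code and not the error of a call. With 1 array the precision of a level is unknown and no p-value is given. The tools were matplotlib 3.10.9, pandas 2.3.3, NumPy 2.4.6 and Python 3.11.15.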

Additional observations from a re-analysis of the deposited data

How the results depend on the processing

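The 8 alternatives were another percentile of background (90th or 99th), a background of olfactory and vomeronasal receptors, of Y-linked genes or of genes specific to other organs, a gene's level taken as its lowest probe set or as their mean, and leaving out probe sets with identifiers ending in _a_at, _s_at or _x_at. Over all 71 genes the count of 38 ranged from 26, with the lowest probe set, to 48, with the limit at the 90th percentile, and the share of all named genes moved from 39.7% to 73.2% under the same settings. Of 64 family and cluster counts under an alternative, 57 stayed within 1.5 times the reported value. That band is wide, since 26 beside 38 lies within it and a count of 11 of 15 ADAMTS genes cannot rise out of it. The Y-linked and other-organ limits, 42 and 45.6, were also near the main limit of 46.5. The 57 is therefore no measure of stability. With the limit at the 99th percentile 5 MMPs, all of them outside the run of neighbouring genes, and 2 ADAMTS-like genes were above it, and none (0) of the run was. With the limit at the 90th percentile 14 ADAMs and 4 genes of the MMP run were above it. With the lowest probe set 6 ADAMTS genes were. These limits and rules are stricter or looser by construction. The call of 44 genes, 21 above and 23 not above, was the same under every alternative that could be run for it. Counts for the MMP run, for subgroups and for promoter motifs were added after the data were seen. The planned split of ADAMs by a zinc-binding motif was not run, since no protein sequences were used here. With 1 array, signal over background sets the limit of detection, and a gene not above it is not shown to be absent.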

Other observations

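Probe sets shared by several symbols entered no count. Those that include 1 of the 71 genes numbered 5, and none was above the limit of 46.5: the 4 shared by Adam1a and Mapkapk5 had intensities of 27, 28, 37 and 40, and the 1 shared by Adam6a and Adam6b had 14. The reference annotation holds 85 genes whose symbols meet the rule, and 14 of them were not analysed here. These were Mmp15, Mmp21, Mmp25, Mmp27 and Mmp28, Adam20, Adam26b, Adam29, Adam30 and Adam39, and Adamts2, Adamts13, Adamts14 and Adamts17.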
